A study of Mus musculus with 17 samples.

Results

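The heat shock proteins and their DnaJ partners are the cell's main protein-folding machinery, and 74 of the 23284 genes in the count table belong to them. They were taken by gene name: the HSP70 and HSP110 chaperones (Hspa and Hsph), HSP90 (Hsp90), the chaperonin pair Hspd1 and Hspe1, the small heat shock proteins (Hspb and Cryab), the DnaJ co-chaperones of the A, B and C classes (Dnaja, Dnajb, Dnajc), and the heat shock transcription factors Hsf1 and Hsf2. By family the 74 comprise 11 HSP70, 3 HSP110, 3 HSP90 and 2 chaperonin genes, 8 small heat shock proteins, 4 DNAJA, 13 DNAJB and 28 DNAJC genes, and the 2 factors. Membership rests on the gene name alone.

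RNA was sequenced from the upper portion of somatosensory and parietal cortex, taken from animals on a Bl6/129S mixed background. The Tsc1CKO group carries mGfapCre+:Tsc1CKO, a conditional knockout of Tsc1 (a brake on the growth kinase mTOR) through Cre under a mouse Gfap promoter, which is used to reach astrocytes. The controls are mGFAPCre+ littermates, so both groups carry the Cre. There were 4 Tsc1CKO and 3 control libraries at postnatal 15 weeks, and 5 of each at 4 weeks. The labels do not say whether libraries of a group are different animals, and the p-values therefore describe the spread among libraries. The tissue is a mixture of cell types, and in such bulk samples more cells of a type and more RNA per cell cannot be told apart.

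HSP70 proteins bind unfolded stretches of other proteins and release them in cycles driven by ATP. DnaJ proteins deliver the substrates and start that cycle, HSP110 proteins exchange the nucleotide, and HSP90 takes over clients such as kinases and receptors. Small heat shock proteins need no ATP and hold aggregation-prone proteins until other chaperones act. Under heat or protein damage Hsf1 switches on a part of the set, above all Hspa1a, Hspa1b, Dnajb1 and Hsph1, while Hspa8 and Hsp90ab1 are made constitutively.

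Total counts per library were 16680450 to 20508464 at 15 weeks and 13492007 to 24583430 at 4 weeks, and the 74 genes took 0.561% to 0.752% of them. Levels are given as CPM, counts scaled to each library's effective size over the 17 libraries together. Tsc1 itself read 98.1, 82.2, 131 and 105 CPM in Tsc1CKO and 114, 118 and 133 CPM in controls at 15 weeks, which overlap, with a log2 fold change of -0.20 ± 0.16 (SE; edgeR adjusted p = 0.449). At 4 weeks it was -0.0049 ± 0.07 (adjusted p = 0.983); a count over the whole gene in mixed tissue does not check the deletion. The astrocyte marker genes were all detected in every group. A pair of 15-week libraries stands apart. The Tsc1CKO library numbered 4 has the lowest Gfap of its group (996 CPM, against 2943 to 5054 CPM in the other 3 and 104 to 134 CPM in controls), and the control library numbered 3 has the highest levels of several heat-inducible genes. At 4 weeks, control library 4 had the lowest astrocyte marker sum, and Tsc1CKO library 2 the highest level of the pituitary hormone gene Gh. Library 2 was not alone in this, as Gh read 136, 346, 1.22, 13.8 and 273 CPM in Tsc1CKO libraries 1 to 5. In the 4-week controls it read 0.0405 to 93.3 CPM. Where leaving out 1 of these 4 libraries changes a call or the sign of a result described below, its value without that library follows for most results. Values near 0 can change sign without this being stated.

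The promoters are shown for the members on which the results turn. Of the 74 members, 58 have an entry in the RefSeq promoter table (GRCm38.p6). A heat shock element is built of GAA units in alternating orientation. The 250 bases upstream of each start were searched on both strands for the 2-unit forms GAANNTTC and TTCNNGAA and for the 3-unit form GAANNTTCNNGAA, whose reverse complement is TTCNNGAANNTTC and which always contains 2-unit matches. A 2-unit match was present for 13 of 58 members (22.4%) and for 14.5% of the 27025 genes in the table. The 3-unit form was present for 3 members, Hspd1, Hspe1 and Dnajb6 (5.17%), and for 0.514% of all genes. Hspb6, Hspb7 and Hspb8, the members called higher in Tsc1CKO at 15 weeks, come first, then the inducible pair Hspa1a and Hspa1b, each 5′ to 3′ on the gene's own strand with 2-unit matches in capitals.
Hspb6: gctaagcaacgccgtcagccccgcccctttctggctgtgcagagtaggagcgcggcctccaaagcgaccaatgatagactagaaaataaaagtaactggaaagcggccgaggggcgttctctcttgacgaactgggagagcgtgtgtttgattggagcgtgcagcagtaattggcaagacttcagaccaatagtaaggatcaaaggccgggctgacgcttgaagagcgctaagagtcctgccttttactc
Hspb7: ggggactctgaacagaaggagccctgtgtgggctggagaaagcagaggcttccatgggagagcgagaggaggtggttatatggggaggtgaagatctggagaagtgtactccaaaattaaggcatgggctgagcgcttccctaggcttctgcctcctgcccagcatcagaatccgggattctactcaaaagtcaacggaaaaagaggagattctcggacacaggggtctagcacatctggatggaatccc
Hspb8: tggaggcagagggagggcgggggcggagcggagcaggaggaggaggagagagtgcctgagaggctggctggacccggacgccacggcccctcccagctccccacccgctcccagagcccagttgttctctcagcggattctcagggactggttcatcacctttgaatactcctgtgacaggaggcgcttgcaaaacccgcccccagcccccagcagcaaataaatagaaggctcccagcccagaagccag
Hspa1a: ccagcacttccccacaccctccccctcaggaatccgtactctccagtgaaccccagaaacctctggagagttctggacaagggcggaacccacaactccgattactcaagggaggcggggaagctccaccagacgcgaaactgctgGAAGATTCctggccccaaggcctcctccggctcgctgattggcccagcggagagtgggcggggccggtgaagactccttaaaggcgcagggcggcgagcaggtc
Hspa1b: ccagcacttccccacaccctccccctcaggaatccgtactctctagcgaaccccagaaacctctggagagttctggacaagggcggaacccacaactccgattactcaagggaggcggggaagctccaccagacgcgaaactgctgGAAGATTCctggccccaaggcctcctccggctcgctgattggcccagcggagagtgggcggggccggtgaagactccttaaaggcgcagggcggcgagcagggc
These windows lie at chr7:30552290-30552539 (plus strand), chr4:141420529-141420778 (plus), chr5:116422865-116423114 (minus), chr17:34972157-34972406 (minus) and chr17:34959239-34959488 (minus), all GRCm38.p6. The windows of Hspb7, Hspb8 and the first start of Hspb6 hold no match, while a second start of Hspb6 has GAAGTTTC at chr7:30553181-30553188, ending 112 bases before it. Hspa1a and Hspa1b share 247 of 250 bases (98.8%), including the same match, GAAGATTC, 96 bases before the start. Hspd1 and Hspe1, transcribed in opposite directions, share 1 run, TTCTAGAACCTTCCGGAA on the plus strand at chr1:55088059-55088076, 71 bases before the Hspe1 start. These matches describe letters and are no evidence of binding.

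Per kilobase of exon, the level in 15-week controls was highest for Hsp90ab1, the constitutive cytosolic HSP90, at 485 ± 14.3 CPM per kb (SD, n = 3). Hsp90b1, the HSP90 of the endoplasmic reticulum, followed at 105 ± 6.79 CPM per kb. Hspa5 (BiP), the HSP70 of that compartment, stood at 84.7 ± 28.99 CPM per kb. Dnajc6 (auxilin), which helps uncoat clathrin vesicles, was at 83.6 ± 6.52 CPM per kb, within the spread of Hspa5. The inducible Hsp90aa1, at 69.1 ± 1.17, and Hspa8, the constitutive HSP70, at 40.5 ± 3.92 CPM per kb, lay in the upper part of the set. Cryab (alpha-B-crystallin), at 57.4 ± 5.64 CPM per kb, was far above Hspb8 at 5.09 ± 2.08, Hspb6 at 1.98 ± 0.244 and Hspb7 at 0.103 ± 0.0245 CPM per kb. Lengths are from GENCODE vM1 on mm9, which gives 73 of the 74 members a single gene model.

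Of the 74 members, 67 had enough counts to be tested at 15 weeks. The 7 that had not were Hspb9, Dnajb7, Dnajb8, Dnajb13, Dnajc5b, Dnajc5g and Dnajc22, each with at most 9 counts in any library.

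At 15 weeks the question was which chaperones differ between Tsc1CKO and control cortex. By edgeR the small heat shock proteins Hspb8 and Hspb6 rose, to 3.19 and 3.26 times the control level. Hspb7 was called as well, but passed the filter on low counts only through Tsc1CKO, the group where it is high. No member of the other chaperone families was called higher by edgeR. By edgeR's quasi-likelihood test 3 of 67 members were called higher and 0 lower at an adjusted p under 0.05, beside 3.36% and 0.42% of the 15015 genes tested. The median log2 fold change of the tested members was -0.08, against 0.02 over all genes tested, with 27 positive and 40 negative values.

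Hspb8, which works with the co-chaperone Bag3 to route misfolded proteins to autophagy (chromosome 5, 116858500 to 116872873, mm9, minus strand), read 27.1, 41.2, 31.6 and 25.1 CPM in the 4 Tsc1CKO libraries and 8.48, 6.79 and 14.5 CPM in the 3 controls. Every Tsc1CKO library was above every control. The log2 fold change was 1.67 ± 0.28 (SE; edgeR adjusted p = 0.0219). At 4 weeks it read 26.1, 12.4, 16.95, 30.9 and 26.03 CPM in Tsc1CKO and 15.6, 20.1, 17.6, 6.498 and 22.04 CPM in controls, which overlap. There the log2 fold change was 0.45 ± 0.33 (adjusted p = 0.514), with 2 SE on either side spanning -0.22 to 1.11, and 0.24 without 4-week control library 4, the lowest of the 10.

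Hspb6, also called Hsp20 and best known from muscle (chromosome 7, 31337197 to 31340462, mm9, plus strand), read 14.1, 20.7, 16.4 and 7.42 CPM in 15-week Tsc1CKO and 3.92, 4.69 and 5.01 CPM in controls. The groups did not overlap, and library 4 was the Tsc1CKO library closest to the controls. The log2 fold change was 1.71 ± 0.31 (edgeR adjusted p = 0.0298). At 4 weeks the levels were 6.83, 2.87, 4.82, 6.05 and 7.11 CPM in Tsc1CKO and 6.31, 5.94, 4.996, 4.69 and 4.98 CPM in controls, and the log2 fold change was 0.04 ± 0.20 (adjusted p = 0.937).

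Hspb7, a small heat shock protein best known from heart (chromosome 4, 140976694 to 140981226, mm9, plus strand), was nearly silent in controls. It had 6, 4 and 5 counts in the 15-week controls (0.351, 0.216 and 0.288 CPM) and 140, 84, 67 and 7 counts in Tsc1CKO (7.04, 5.09, 3.73 and 0.433 CPM). Tsc1CKO library 4 was just above the highest control, and the other 3 were far above it. The fitted log2 fold change was 3.83 ± 0.84 (edgeR adjusted p = 0.0453). Since only its Tsc1CKO counts took it past the filter, that p is conditional on the difference; with no filter it was 0.0445. The size rests on 3 Tsc1CKO libraries and on controls of a few counts each. At 4 weeks the counts were 12, 7, 2, 11 and 5 in Tsc1CKO and 7, 9, 5, 1 and 8 in controls, too few for a test of that comparison.

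The calls rest on few libraries. Hspb8 lost its call without Tsc1CKO library 1 or control library 1 or 2. Hspb6 lost it without Tsc1CKO library 1 or 3 or any of the 3 controls, and Hspb7 without any of the controls. Without Tsc1CKO library 1, 2 or 3 the filter on low counts removed Hspb7 from the test. Leaving out 1 library gave log2 fold changes of 1.48 to 2.05 for Hspb8, 1.497 to 1.919 for Hspb6 and 3.68 to 4.20 for Hspb7. Without Tsc1CKO library 4 all 3 were called, among 9 members in all: Hspb3 and Dnajc10 were then higher as well, and Hspa12a, Hspa4l, Hsp90b1 and Dnajc21 lower. That fit called 5 of 67 members higher and 4 lower, beside 13.4% and 9.8% of all genes tested.

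**Figure D1:**
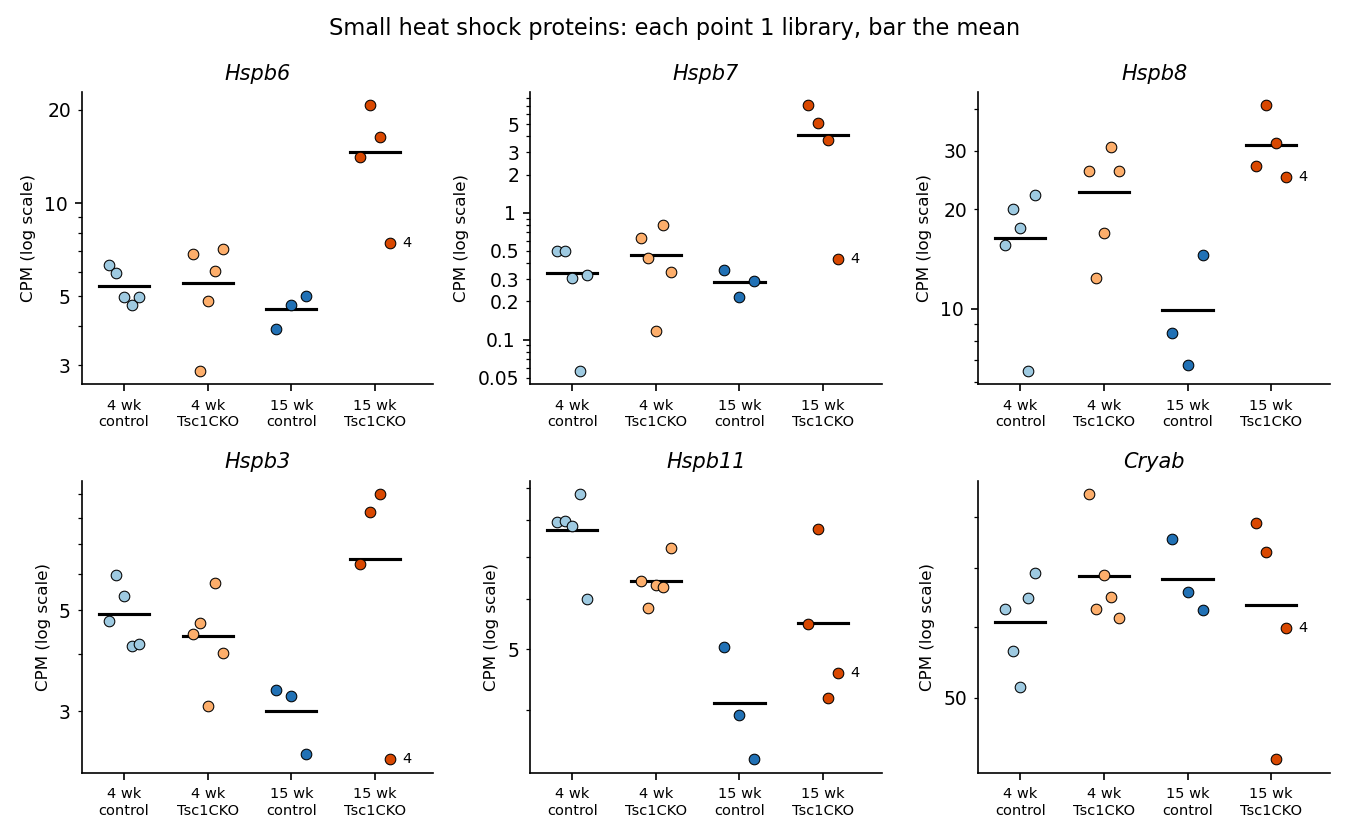
Levels of 6 small heat shock protein genes in CPM (log scale) in the 4 groups; each point is a library, each bar a group mean, and the 15-week Tsc1CKO library numbered 4 is marked. For Hspb6, Hspb7 and Hspb8 all 4 Tsc1CKO libraries at 15 weeks lie above the 3 controls, while the groups overlap for Hspb3, Hspb11 and Cryab.

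The other small heat shock genes were not called by edgeR or DESeq2, and limma voom called 1 of them, Hspb3, higher. Cryab, the most abundant of them, read 78.7, 73.02, 42.6 and 59.9 CPM in 15-week Tsc1CKO and 75.6, 65.7 and 62.8 CPM in controls, a log2 fold change of -0.08 ± 0.20 (edgeR adjusted p = 0.818; -0.47 to 0.31 at 2 SE). Hspb3, a muscle-type small heat shock protein, was at 6.34, 8.25, 9.03 and 2.35 CPM against 3.33, 3.24 and 2.42 CPM (1.13 ± 0.41, adjusted p = 0.13). Its Tsc1CKO library 4 lay below all 3 controls, and without that library it was called at 1.40 (adjusted p = 0.0038). Hspb11, which despite its name belongs to the transport machinery of cilia, had 0.44 ± 0.26 (adjusted p = 0.307). Hspb2, whose gene lies beside Cryab, had -0.32 ± 0.43 (adjusted p = 0.661).

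Astrocyte and microglia markers were higher in Tsc1CKO as well. At 15 weeks 8 of 10 astrocyte markers were called higher (median log2 fold change 1.04), and their summed level was 11973 to 14336 CPM in Tsc1CKO and 6999 to 7921 CPM in controls. Of 10 microglia markers, 4 were called higher (median 1.07), with a sum of 607 to 1195 CPM against 394 to 454 CPM. Gfap was 3498, 5054, 2943 and 996 CPM in Tsc1CKO libraries 1 to 4. Library 4 was also the lowest of the 4 for Hspb6, Hspb7, Hspb8 and Hspb3. For Hspb8 it read 25.1 CPM, close to the 27.1 CPM of library 1. The summed astrocyte markers set library 4 less apart than Gfap, at 13412.5, 14336, 12286 and 11973 CPM in libraries 1 to 4. Markers of oligodendrocytes (0 of 10, median -0.33), endothelium (0 of 10, median 0.07) and mural cells (0 of 8, median 0.15) were not called. At an unadjusted p under 0.05 those lists had 1 lower, 2 higher and 0 genes, by DESeq2 1 lower, 1 higher and 0, and by limma voom 1 lower, 2 higher and 0. No marker of these lists was at 0 throughout a group. At 4 weeks 10 of 10 astrocyte markers had positive values (median 0.44), with 0 called by edgeR. Of these, 8 were higher at an unadjusted p under 0.05, 3 by DESeq2 and 0 by limma voom. Microglia markers had 9 of 10 positive values there (median 0.21), with 0 called by edgeR, 3 higher at an unadjusted p under 0.05, 1 by DESeq2 and 0 by limma voom. Hspb6 and Hspb8 were not called at that age. The part of cell composition in the small heat shock protein levels was not tested.

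Among the members not called, the HSP110 and HSP90 genes all had negative values at 15 weeks (3 of 3 each, medians -0.32 and -0.11), as had 6 of 11 HSP70 genes (median -0.16). Without the adjustment for many genes, 5 members were higher and 7 lower at p under 0.05 (edgeR), where 15.7% and 9.59% of all genes were. In 9 members, among them Hspa12a, Hspa4l, Hspa1l and Hsp90b1, every Tsc1CKO library was below every control, and in 3 (Hspb6, Hspb7 and Hspb8) every one was above. Over all genes tested those shares are 13.3% and 11.2%. DESeq2, the tool named by the submitters, called the same 3 small heat shock proteins higher and 5 members lower, Hspa12a, Hspa4l, Hspa1l, Hsp90b1 and Dnajc21, beside 9.26% and 4.92% of all genes. With limma voom and quality weights 7 members were higher and 6 lower, beside 18.5% and 16% of all genes. The 4 higher by voom beyond the small heat shock proteins above were Hspb3, Hsf2, Dnajc10 and Dnajc18, and the 6 lower were Dnajc27 and the 5 called by DESeq2.

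Hspa12a, a divergent HSP70 (chromosome 19, 58870241 to 58935474, mm9, minus strand), read 180.1, 114, 184 and 246 CPM in 15-week Tsc1CKO and 325, 304 and 338 CPM in controls. The groups were apart, with a wide spread within Tsc1CKO, and the log2 fold change was -0.81 ± 0.23 (edgeR adjusted p = 0.0759). It was called lower without Tsc1CKO library 2 and without Tsc1CKO library 4 (edgeR adjusted p = 0.0453 and 0.00725). Hspa4l, an HSP110 nucleotide exchange factor (chromosome 3, 40548417 to 40600025, mm9, plus strand), read 137, 105, 128 and 149 CPM against 183, 177 and 182 CPM (-0.46 ± 0.14, adjusted p = 0.0876). The controls lay close together and above all Tsc1CKO libraries, and without Tsc1CKO library 4 the value was -0.54 (adjusted p = 0.0176).

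Hspa1l, an HSP70 best known from testis that neighbours Hspa1a (chromosome 17, 35109648 to 35116229, mm9, plus strand), was at 7.85, 6.73, 9.696 and 8.35 CPM against 11.9, 12.6 and 11.4 CPM (-0.53 ± 0.16, adjusted p = 0.0891). Hsp90b1 (GRP94), which folds integrins and Toll-like receptors (chromosome 10, 86152954 to 86168254, mm9, minus strand), was at 337, 340.3, 259 and 340.1 CPM against 397, 452 and 423 CPM (-0.39 ± 0.13, adjusted p = 0.116). In both genes the groups did not overlap, and Hsp90b1 had -0.43 without Tsc1CKO library 4 (adjusted p = 0.0471). Dnajc21, a ribosome assembly factor (chromosome 15, 10376511 to 10400271, mm9, minus strand), read 23.1, 16.4, 22.7 and 38.8 CPM against 43.8, 35.8 and 53.3 CPM (-0.78 ± 0.27, adjusted p = 0.122), with library 4 inside the control range, and -1.08 without it (adjusted p = 0.00597). Hspa1l and Dnajc21 are singled out for their DESeq2 calls, after their values were seen.

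Of the neuronal markers, 6 of 8 excitatory and 4 of 7 inhibitory ones had negative values in the same comparison. None of the excitatory markers was called by edgeR; 4 were lower and 0 higher at an unadjusted p under 0.05, 1 and 0 by DESeq2, and 5 and 1 by limma voom. Their median was -0.61, with a sum of 6098 to 7974 CPM in Tsc1CKO and 7982 to 10209.9 CPM in controls. The inhibitory markers went both ways: by edgeR 1, Vip, fell and 0 rose, by DESeq2 2 were lower and 1 higher, and by limma voom 2 lower and 3 higher (median -0.21). Their sum was 1608, 1344, 1078 and 862 CPM in Tsc1CKO, with libraries 1 and 2 above every control and library 4 below, and 1046 to 1084 CPM in controls. Their part in the chaperone values was not tested.

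**Figure D2:**
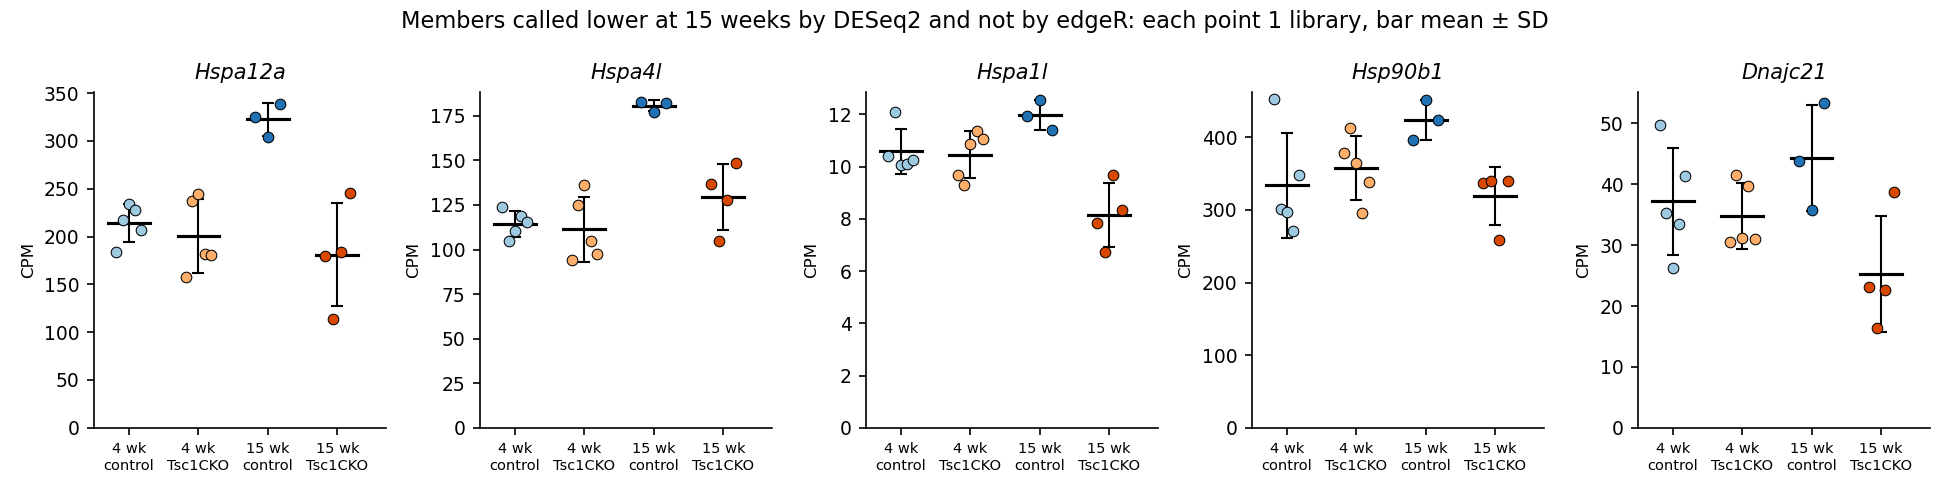
Levels in CPM of the 5 members called lower at 15 weeks by DESeq2 and not by edgeR, in the 4 groups; points are libraries, bars the mean ± SD. At 15 weeks the Tsc1CKO libraries lie below the controls for Hspa12a, Hspa4l, Hspa1l and Hsp90b1, and at 4 weeks the groups overlap for all 5.

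For the stress-induced Hspa1a, Hspa1b and Dnajb1 the 15-week values turned on 1 control library. Hspa1a, the stress-induced HSP70 (chromosome 17, 35106144 to 35109069, mm9, minus strand), read 6.29, 4.12, 5.35 and 4.95 CPM in 15-week Tsc1CKO and 5.73, 4.91 and 28.5 CPM in controls. Hspa1b, its near-identical neighbour (chromosome 17, 35093381 to 35096183, mm9, minus strand), read 8.35, 8.37, 6.85 and 6.18 CPM against 4.51, 4.75 and 35.2 CPM. In both, control library 3 stood far above the other libraries of that age. The log2 fold change of Hspa1a was -1.31 ± 0.56 (edgeR adjusted p = 0.187) and, without control 3, -0.02. For Hspa1b it was -0.97 ± 0.65 (adjusted p = 0.366) and, without control 3, 0.70. Counts of the pair are uncertain, since 47.8% of the 100-base windows of the Hspa1a transcript, as long as a read, occur unchanged in Hspa1b and 49.9% of those of Hspa1b in Hspa1a.

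Dnajb1 (Hsp40), the partner of the inducible HSP70, was high in the same library, at 51.3, 47.1, 42.8 and 65.6 CPM in Tsc1CKO and 65.1, 62.9 and 141 CPM in controls (-0.77 ± 0.29, edgeR adjusted p = 0.142; -0.29 without control 3). Hsph1 (HSP105), the inducible HSP110, read 478 CPM there, against 368, 329.6, 287 and 292 CPM in Tsc1CKO and 369 and 367 CPM in the other controls. Hspa5, induced by endoplasmic reticulum stress, read 412 CPM there and at most 299 CPM in the other 6. Control 3 was the highest of the 7 libraries for 16 of 67 members, beside 16.8% of all genes, and Tsc1CKO library 2 for 17, beside 28.1%. Of the 13 members listed as heat-inducible, 7 were highest in control 3 and 3 in Tsc1CKO library 2. The 7 include Hspa8, which is listed there though called constitutive above, at 187 CPM in control 3 and at most 171 CPM in the others. They also include Hspd1, at 73.9 CPM in control 3 and at most 68.1 CPM in the others. Cryab, Dnaja1, Hsp90aa1, Hspa4l, Hspb8 and Hspe1 are the 6 of that list that were not highest in control 3. The immediate-early genes, which neurons switch on with activity, summed to 3349 CPM in it and to 452 to 2999 CPM in the other 6. The part of handling or neuronal activity in that library was not tested.

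**Figure D3:**
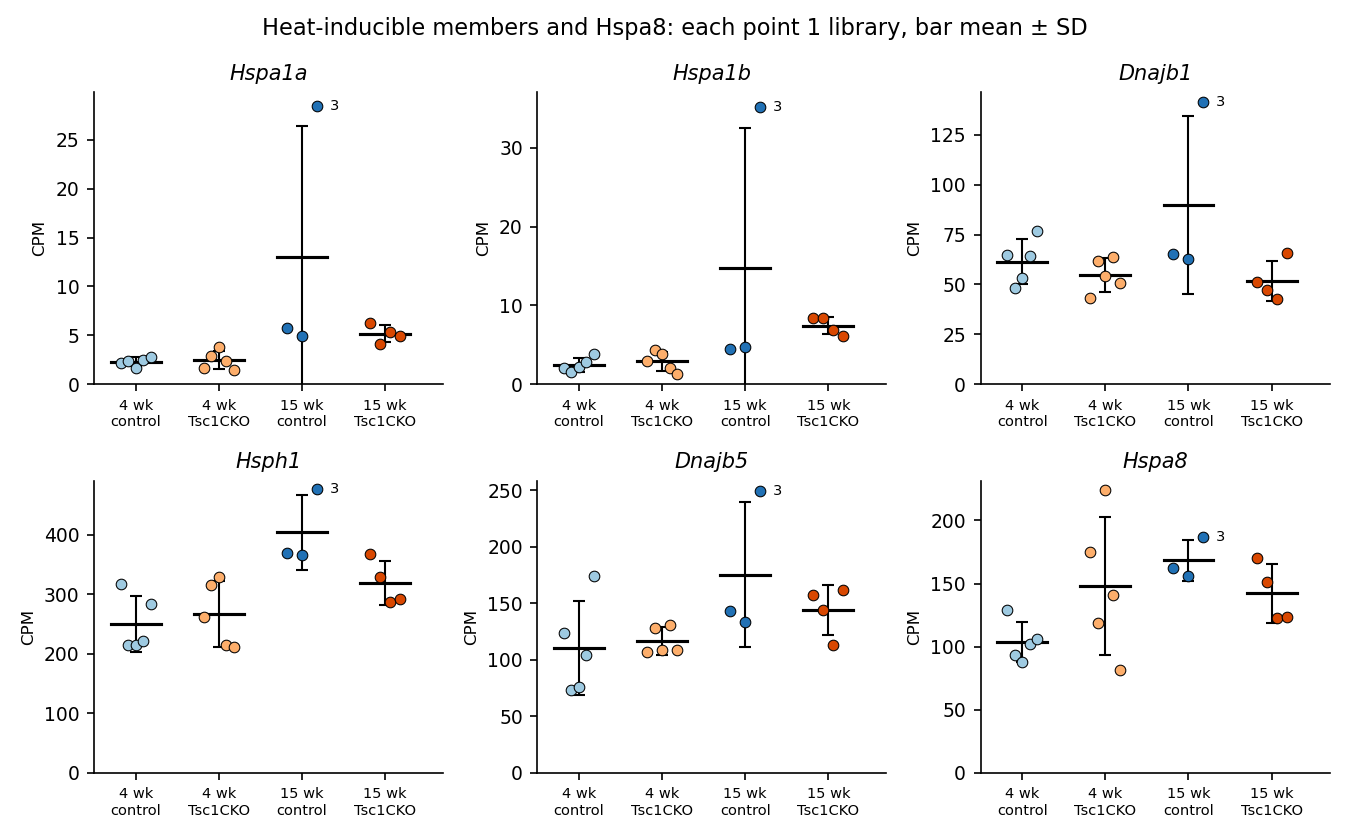
Levels in CPM of the heat-inducible Hspa1a, Hspa1b, Dnajb1 and Hsph1, of Dnajb5 and of the constitutive Hspa8; points are libraries, bars the mean ± SD, and the 15-week control numbered 3 is marked. That control reads 28.5 CPM for Hspa1a, where the other 6 libraries of its age read 4.12 to 6.29 CPM.

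Hsf1, which controls the heat shock response, read 28.5, 28.3, 29.3 and 34.1 CPM in 15-week Tsc1CKO and 30.2, 29.5 and 34.6 CPM in controls (-0.04 ± 0.12, edgeR adjusted p = 0.838; -0.29 to 0.20 at 2 SE). Leaving out 1 library gave Hsf1 log2 fold changes of -0.12 to 0.03. The activity of Hsf1 is set largely after translation and is not measured here. Hsf2, a factor active in development, was at 29.2, 29.3, 27.9 and 24.1 CPM against 22.99, 21.8 and 26.4 CPM (0.24 ± 0.12, adjusted p = 0.241). Hspa8 read 171, 151, 123 and 124 CPM against 163, 156 and 187 CPM (-0.23 ± 0.14, adjusted p = 0.345). Hsp90ab1 read 1492, 1360.4, 1409 and 1168 CPM against 1463, 1409 and 1493 CPM (-0.08 ± 0.12, adjusted p = 0.688), the interval at 2 SE being -0.31 to 0.15. Expression of all 4 overlapped between the groups.

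By edgeR the organelle chaperones were not called at 15 weeks. Of 12 members of the endoplasmic reticulum, DESeq2 called 1, Hsp90b1 (above), lower, and limma voom 2 higher, Dnajc10 and Dnajc18, and Hsp90b1 lower; 1 was higher and 1 lower at an unadjusted p under 0.05. Of 9 mitochondrial members, 0 were called by edgeR, DESeq2 or limma voom, with 0 at an unadjusted p under 0.05. In the endoplasmic reticulum, Hspa5 had -0.16 ± 0.21 (edgeR adjusted p = 0.648) and, without control 3, 0.14. Its DnaJ partner Dnajb9 had 0.18 ± 0.14 and Dnajc3 (p58IPK), which also restrains the stress kinase PERK, 0.13 ± 0.12 (adjusted p = 0.448 and 0.509). In mitochondria, Hspa9 (mortalin), which pulls imported proteins through the membrane, had 0.04 ± 0.12, and the folding chamber Hspd1 and its lid Hspe1 had -0.10 ± 0.11 and -0.14 ± 0.26 (adjusted p = 0.84, 0.56 and 0.753). At synapses, Dnajc5 (cysteine string protein), which keeps SNAP25 folded, had -0.22 ± 0.13 (adjusted p = 0.301) and Dnajc6 -0.09 ± 0.14 (adjusted p = 0.726). By edgeR 0 of 4 DNAJA, 0 of 10 tested DNAJB and 0 of 25 tested DNAJC genes were called, and at an unadjusted p under 0.05 there were 0, 1 and 2. DESeq2 called 1 of these, Dnajc21, and limma voom 4.

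**Figure D4:**
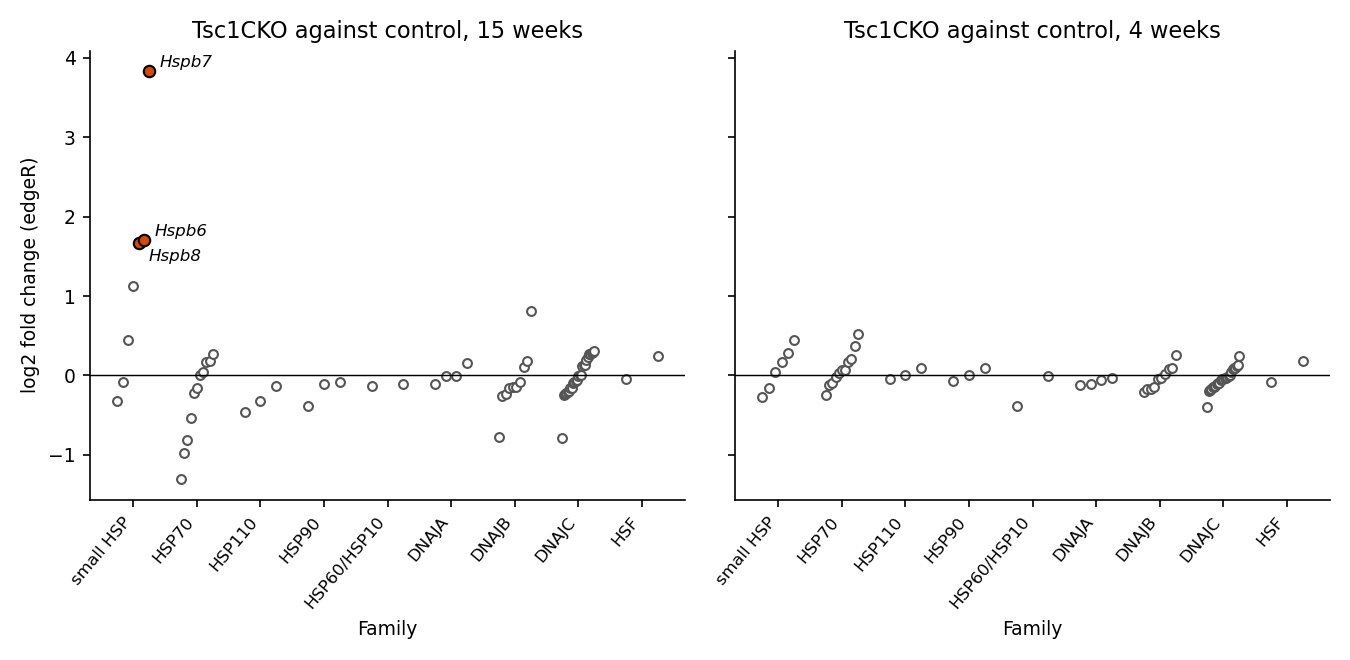
Log2 fold change of Tsc1CKO against control for every tested member, by family, at 15 weeks (67 members) and 4 weeks (66 members); filled orange points have an adjusted p under 0.05. The 3 filled points are Hspb6, Hspb7 and Hspb8 at 15 weeks, and none is filled at 4 weeks.

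Lists of chaperone partners outside the named families had no call by edgeR at 15 weeks. Of 24 co-chaperones and Hsf1 partners 0 were called (median -0.07; 4 higher and 2 lower at an unadjusted p under 0.05, 2 and 1 by DESeq2, 4 and 2 by limma voom). Fkbp5, an HSP90 co-chaperone induced by glucocorticoids, had the smallest p of that list, at 63.5, 65.6, 99.4 and 33.1 CPM in Tsc1CKO and 23.2, 25.7 and 35.7 CPM in controls (1.23 ± 0.33, edgeR adjusted p = 0.0667). Hsbp1 came next by p (0.66 ± 0.20, edgeR adjusted p = 0.0899). Bag3, the partner of Hspb8, followed, at 19.9, 18.7, 16.3 and 10.8 CPM against 7.96, 8.74 and 13.4 CPM (0.73 ± 0.25, edgeR adjusted p = 0.116). For Fkbp5 and Bag3, Tsc1CKO library 4 was the lowest of its group and lay within the control range. Of 27 genes of endoplasmic reticulum stress and folding 0 were called (median -0.02; 5 higher at an unadjusted p under 0.05, 1 by DESeq2, 5 by limma voom). Of 13 genes of the cytosolic chaperonin and prefoldin, which fold actin and tubulin, 0 were called (median 0.11; 0 at an unadjusted p under 0.05 and by DESeq2, 1 by limma voom). Of 14 mitochondrial chaperones and proteases 0 were called (median 0.16; 1 at an unadjusted p under 0.05, 0 by DESeq2, 2 by limma voom). The 14 immediate-early genes had 0 calls (median -0.50; 1, 0 and 1 by the same 3 counts).

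At 4 weeks the question was the same, and no chaperone passed. By edgeR 0 of 66 tested members were called higher and 0 lower, beside 0.0407% and 0% of the 14754 genes tested, and the tested members' median was -0.03 against 0.0042 over all genes. At an unadjusted p under 0.05, 1 member was higher and 6 lower, beside 9.81% and 8.95% of all genes. DESeq2 called 0 higher and 1 lower, Dnajc15, beside 2.57% and 1.44% of all genes, and limma voom 0 and 0, beside 0.0407% and 0%. In 1 member, Hspa12b, every Tsc1CKO library lay above every control, and in 0 below, while over all genes the shares were 1.84% and 1.48%.

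Dnajc15, which restrains respiration at the mitochondrial inner membrane, read 22.9, 23.3, 21.8, 25.3 and 27.4 CPM in 4-week Tsc1CKO and 36.1, 30.8, 24.98, 36.8 and 29.3 CPM in controls (-0.39 ± 0.10, edgeR adjusted p = 0.0952). The groups overlap through control library 3 alone. Hspa12b, an HSP70 of endothelial cells, was at 15.99, 12.4, 12.02, 13.8 and 13.7 CPM against 10.5, 11.2, 11.96, 8.53 and 10.05 CPM (0.37 ± 0.11, adjusted p = 0.119). Endothelial markers had 0 calls of 10 by edgeR and a median of 0.43 (6 higher at an unadjusted p under 0.05, 3 by DESeq2, 0 by limma voom), with a sum of 399 to 433 CPM in Tsc1CKO and 228 to 402 CPM in controls. Their part in the Hspa12b value was not tested.

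Hspa8 had the largest fitted value at 4 weeks and a wide spread. It read 175, 119, 225, 141 and 81.2 CPM in Tsc1CKO and 129, 92.98, 87.6, 102 and 106 CPM in controls. The 4-week Tsc1CKO libraries lie on both sides of the control range, and the log2 fold change was 0.52 ± 0.24 (edgeR adjusted p = 0.277). Hspe1 was at 14.3 to 26.6 CPM against 15.9 to 31.7 CPM (-0.38 ± 0.22, adjusted p = 0.387), with -0.60 without Tsc1CKO library 5 and -0.22 without control library 4. Hspb11 was at 5.81 to 7.24 CPM against 5.996 to 8.82 CPM (-0.27 ± 0.12, adjusted p = 0.262). The annotated genes of Hspe1 and Hspd1 overlap at their starts and the libraries do not mark strand, so reads in the overlap cannot be told apart. Among the chaperone partner lists, the chaperonin list had 12 of 13 negative values at 4 weeks (median -0.18) and the mitochondrial list 12 of 14 (median -0.11). They had 0 calls by edgeR, 7 and 6 lower at an unadjusted p under 0.05, 1 and 3 by DESeq2 and 0 by limma voom. Over all genes tested at 4 weeks, 7226 of 14754 values were negative. At 15 weeks these lists went the other way, with 12 of 13 and 12 of 14 positive values.

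The difference between the genotype effects at the 2 ages was tested over all 17 libraries. By edgeR 0 of 67 members were called in either direction, beside 0.174% higher and 0.0387% lower of 15492 genes. At an unadjusted p under 0.05, 10 members had a higher value at 15 weeks than at 4 weeks and 8 a lower one (12.7% and 12.4% of all genes). DESeq2 called 3 higher, Hspb3, Hspb6 and Hspb7, and 2 lower, Dnajc7 and Hspa1l (4.08% and 2.81%), and limma voom 11 and 5 (11.7% and 13.7%). The difference on the log2 scale was 1.65 ± 0.38 for Hspb6 (edgeR adjusted p = 0.0627), 3.35 ± 1.02 for Hspb7 (0.0842), 1.20 ± 0.47 for Hspb8 (0.138) and 1.27 ± 0.42 for Hspb3 (0.0962). By edgeR the rise of the small heat shock proteins at 15 weeks is therefore not shown to differ from their change at 4 weeks. Without the 15-week Tsc1CKO library 4, 13 members passed, among them Hspb6 at 1.86, Hspb7 at 3.72 and Hspb3 at 1.55, and without any other single library 0. Of those 13, 8 were higher and 5 lower, beside 11.2% and 11.4% of all genes tested in that fit.

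The authors' deposited table for 15 weeks lists 5 members, with log2 fold changes of 3.37 for Hspb7, 1.65 for Hspb6, 1.28 for Hspb3, -0.53 for Hspa1l and -0.31 for Dnajc7. Of its 1062 fold changes, 1061 equal this difference between ages within 0.001 when DESeq2 is fitted to the counts, and 4 equal the effect at 15 weeks. The authors' deposited table for 4 weeks lists 1 member, Dnajc15, at -0.40, and its 594 fold changes all equal the effect at 4 weeks within that tolerance.

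More chaperones were called with age. In controls, 15 weeks against 4 weeks, 19 of 66 tested members were called higher and 10 lower by edgeR, beside 22.4% and 19.3% of the 15007 genes tested, so the members' shares of 28.8% and 15.2% lie near the background. By family, 3 of 3 HSP110, 2 of 3 HSP90 and 6 of 11 HSP70 genes rose and 1 HSP70 gene, Hspa13, fell (-0.26 ± 0.10), while 0 of 6 tested small heat shock proteins rose and 2 fell. The DNAJC class split, with 6 higher and 4 lower of 25. Cell type markers moved with age as well: 5 of 10 astrocyte markers fell, 4 of 8 excitatory and 5 of 7 inhibitory neuron markers rose, and 2 of the 7 inhibitory markers fell. Age and any difference in dissection, library preparation or sequencing between the ages cannot be told apart.

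Hsp90ab1 rose from 978, 899.5, 1005, 947 and 931 CPM in the 4-week controls to 1463, 1409 and 1493 CPM at 15 weeks, with no overlap. Its log2 fold change was 0.62 ± 0.07 (edgeR adjusted p = 4.27e-05). Hspa4l rose from 124, 105, 110.1, 119 and 115 CPM to 183, 177 and 182 CPM (0.66 ± 0.07, adjusted p = 3.65e-05). Hspa8 (0.71 ± 0.11), Hsph1 (0.70 ± 0.15), Hspa12a (0.60 ± 0.08), Hspa4 (0.52 ± 0.08), Hsp90aa1 (0.44 ± 0.07), Hspa9 (0.43 ± 0.07) and Hspa2 (0.37 ± 0.11) rose as well. Every 15-week control was above every 4-week control in 3287 of the 15007 genes tested, and in each of these members. They span the cytosolic HSP70, HSP90 and HSP110 systems and, with Hspa9, the mitochondrial one. Hspa5 of the endoplasmic reticulum (0.02 ± 0.31, edgeR adjusted p = 0.969, and -0.29 without control 3) was not called. Leaving out 1 library gave Hspa5 values of -0.29 to 0.23. The chaperonin Hspd1 (0.19 ± 0.09, edgeR adjusted p = 0.102) was not called either.

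Among the DnaJ proteins, the 3 members listed for vesicle traffic all rose with age: Dnajc5 (0.44 ± 0.06), Dnajc6 (0.42 ± 0.07) and Dnajc13 (0.29 ± 0.06), a sorting factor of endosomes. Dnajc16 (0.76 ± 0.10), a membrane-bound member of the endoplasmic reticulum, had the largest rise of its class. It read 33.95, 39.1, 42.2, 47.3 and 35.4 CPM at 4 weeks and 67.8, 69.6 and 62.6 CPM at 15 weeks, without overlap. The other 9 that fell were Hspb11 (-0.90 ± 0.18), Hspb3 (-0.70 ± 0.19), Dnajc15 (-0.55 ± 0.13), Dnajc24 (-0.52 ± 0.14), a diphthamide synthesis factor, Dnajc25 (-0.46 ± 0.16), Dnajb6 (-0.41 ± 0.10), which suppresses polyglutamine aggregation, Dnajc8 (-0.27 ± 0.07), a splicing factor, Dnajb9 (-0.27 ± 0.10) and Hsf2 (-0.28 ± 0.09). Hspb11 fell from 7.94, 7.97, 7.83, 8.82 and 5.996 CPM to 5.03, 3.94 and 3.34 CPM. Hspb8 went from 15.6, 20.1, 17.6, 6.498 and 22.04 CPM to 8.48, 6.79 and 14.5 CPM, which overlap (-0.72 ± 0.41, adjusted p = 0.193). Without 4-week control library 4 Hspb8 was called lower, at -0.93 (adjusted p = 0.0131), and without 15-week control 3 it was at -1.10 (adjusted p = 0.106). Hspa2, Hspb3, Dnajc24, Dnajc25, Dnajb9 and Hspa13 lost their age calls without 15-week control 3, with values of 0.34, -0.57, -0.45, -0.49, -0.24 and -0.27. Dnajb9 and Hspa13 lost them without 4-week control 4 too (-0.26 and -0.26).

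The largest fitted age effects were those of Hspa1b (2.55 ± 0.77, edgeR adjusted p = 0.0354) and Hspa1a (2.48 ± 0.60, adjusted p = 0.0128), and control library 3 sets their size. Hspa1a read 2.197, 2.36, 1.67, 2.49 and 2.84 CPM and Hspa1b 2.06, 1.59, 2.16, 2.77 and 3.85 CPM in 4-week controls. Without control 3 the log2 fold change was 1.20 for Hspa1a and 0.88 for Hspa1b, both still called. Leaving out any 1 of the 4-week controls ended the call of Hspa1b. Tsc1CKO libraries read 1.503 to 3.77 CPM at 4 weeks and 4.12 to 6.29 CPM at 15 weeks for Hspa1a, without overlap.

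**Figure D5:**
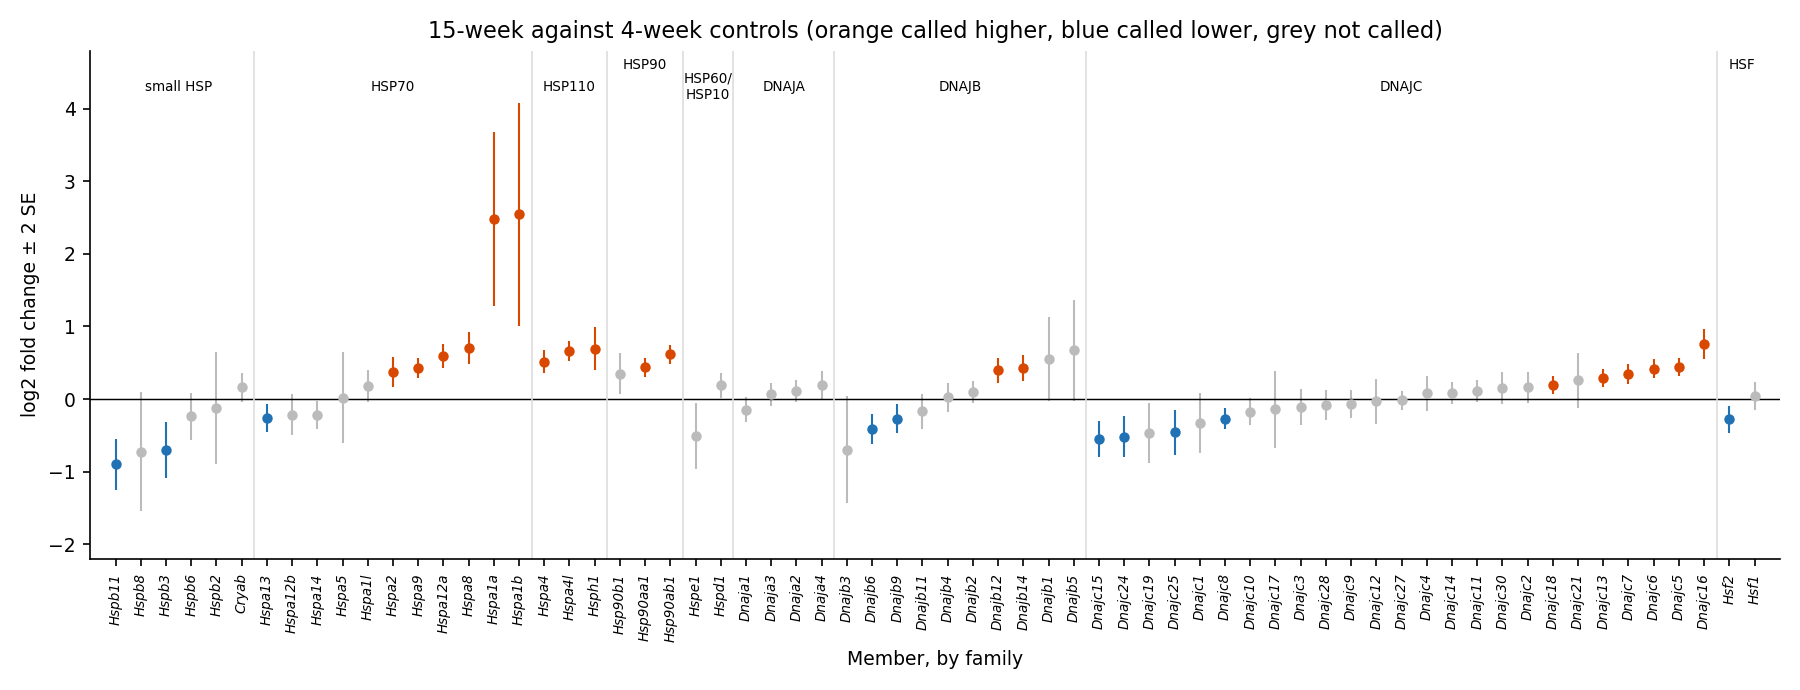
Log2 fold change of 15-week against 4-week controls for the 66 tested members, grouped by family, with bars of 2 SE on either side; orange is called higher, blue called lower, grey not called. The 3 HSP110 and 3 HSP90 genes and 8 of 11 HSP70 genes lie above 0, and 5 of the 6 tested small heat shock proteins lie below it.

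Of the 29 members called with age, 19 were called under every alternative tried, 15 higher and 4 lower. In 5 of the 19 members that rose with age, Hspa12a, Hspa4l, Dnajc5, Dnajc7 and Dnajb12, every 15-week Tsc1CKO library was also below every 15-week control. Over all genes tested at 15 weeks that share was 13.3%, and the share among all genes that rose with age was not computed. Dnajc5 was at 254 to 342 CPM against 354 to 358 CPM, Dnajc7 at 117 to 136 against 145 to 151 CPM and Dnajb12 at 28.4 to 35.6 against 36.98 to 38.4 CPM. Hspa12a stood at 214 ± 20.01 CPM (SD, n = 5) in 4-week controls, 323 ± 17.3 CPM (SD, n = 3) in 15-week controls and 181 ± 53.9 CPM (SD, n = 4) in 15-week Tsc1CKO. These 2 comparisons share the 15-week controls, so the values are set side by side only.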

How the data were processed

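Libraries were made with a kit that does not mark strand from RNA with a RIN of at least 9.8, read to a length of 100 bases, converted with bcl2fastq 1.8.4 and aligned to mm9 with Tophat 2.0.4, per the labels' protocols. How reads were counted (program, gene models, strand) is not given in the sources used here. The deposited table holds raw read counts per gene. The deposited comparison tables hold, per the file headers, the authors' DESeq2 mean normalised signal, log2 fold change with its standard error, test statistic (a score), p-value and adjusted p-value. The labels name an FDR of 0.1 and a cutoff of 0.05.

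From the counts, edgeR 4.0.16 (R 4.3.3) was run per comparison with TMM scaling, its default filter on low counts, robust quasi-likelihood fits and Benjamini-Hochberg adjustment over all genes tested. Genes were called at an adjusted p under 0.05, and intervals are 2 SE on either side, the SE being taken from the fold change and its F statistic. CPM used TMM over the 17 libraries. The rRNA gene Rn45s took 2.43% to 10.7% of counts. Chi-square per degree of freedom between replicates was 7.14 to 96.8 over 29 pairs, so no library is a copy of another. The script was tested on simulated data. Alternatives were DESeq2 1.42.0, limma 3.58.1 (voom with quality weights), RLE size factors, no filter, a filter at 1 CPM, an adjusted p under 0.1, Rn45s left out, a replicate block, all 17 libraries in the fit, and leaving out each library. Leaving out both libraries that stand apart was added after seeing the data.

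Members and lists were chosen with earlier results of these data known. Members are named by role, by call, by the largest and smallest values of a comparison, or where a small count needs it. For the partner lists, up to 3 genes with the smallest p are eligible to be named. The list of markers of pituitary, a tissue that cortex should lack, had 0 calls by edgeR, DESeq2 or limma voom at either age (1 at 15 weeks and 0 at 4 weeks at an unadjusted p under 0.05 by edgeR). Their sum was 0.947 to 76.05 CPM in Tsc1CKO and 0.701 to 2.16 CPM in controls at 15 weeks, and 3.48 to 491 and 1.499 to 118 CPM at 4 weeks. For 1 further gene that the name pattern takes in, no result is reported here. Promoters are from RefSeq.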

Additional observations from a re-analysis of the deposited data

Results flagged for a closer look

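Of 123 sets of a named member's levels in a group of 4 or 5 libraries, over 41 genes, 8 held a library whose gap to the nearest other exceeded Dixon's 95% critical value. Chance alone flags about 1 set in 20. At 15 weeks, Tsc1CKO library 3 was low for Hsp90b1, at 259 CPM where the other 3 read 337 to 340 CPM, library 1 was high for Hspa4 at 321 CPM (275 to 282 CPM in the others), and library 4 was high for Hspa12b at 11.3 CPM (9.56 to 9.64 CPM). At 4 weeks, Tsc1CKO library 5 was high for Hspe1 at 26.6 CPM (14.3 to 15.0 CPM in the others), and library 3 was low for Dnajc24 at 7.43 CPM (9.91 to 10.5 CPM). Among the 4-week controls, library 1 was high for Dnaja1 at 117 CPM (90.7 to 95.4 CPM), library 2 was high for Hspa1l at 12.1 CPM (10.1 to 10.4 CPM), and library 4 was low for Dnajc7 at 106 CPM (119 to 122 CPM). The groups of 3 controls at 15 weeks are too small for that rule. By edgeR no member's genotype effect was called different between the ages.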

How the results depend on the processing

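Against 3 members called at 15 weeks, DESeq2 called 8, limma voom with quality weights 13, an adjusted p under 0.1 gave 6, and all 17 libraries in the fit 11. Of all genes, an adjusted p under 0.1 called 8.96% higher and 3.25% lower, and the fit of all 17 libraries 12.1% and 10.5%. Leaving out 1 library gave 0 to 9 members. Leaving out both Tsc1CKO library 4 and control library 3, chosen after seeing the data, gave 7, beside 7.37% of all genes higher and 3.96% lower. RLE size factors, no filter, a filter at 1 CPM and Rn45s left out each gave 3. At 4 weeks DESeq2 and an adjusted p under 0.1 each called 1 member, Dnajc15, and the other alternatives 0. That looser threshold called 1.97% of all genes higher and 0.888% lower. For the difference between ages, 0 became 5 with DESeq2, 16 with limma voom and 6 at an adjusted p under 0.1, and leaving out 1 library gave 0 to 13. Here the looser threshold called 4.27% of all genes higher and 3.41% lower. With age, 29 became 23 to 33. Over all genes at 15 weeks, edgeR called 504 higher and 63 lower, DESeq2 1391 and 739, and limma voom 2773 and 2400. Of 5174 single-member values under an alternative, 1 was called with the opposite sign to the reported value: Hspa1b at 15 weeks went from -0.97 to 0.77 (edgeR adjusted p = 0.0476) without both libraries that stand apart. The cause of these differences was not tested, other than that control library 3 holds the high Hspa1b level.

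The labels do not say whether replicate numbers pair the samples. The correlation of deviations between same-numbered libraries was 0.20, -0.12 and 0.02 at 15 weeks. It was -0.13 to 0.05 at 4 weeks and -0.12 to 0.04 with age. With 3 or 5 pairs a comparison, these values cannot decide whether the numbers pair the samples. A fit with the replicate number as a block called 7 members at 15 weeks, 0 at 4 weeks, 7 for the difference between ages and 28 with age. Of all genes, that fit called 11% higher and 7.93% lower at 15 weeks, and 0.0813% and 0% at 4 weeks. The shares were 8.66% and 8.88% for the difference between ages, and 20.5% and 18% with age.

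With 3 to 5 libraries a group, the calls among genes of few counts, above all Hspb7, rest on little.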
